A study of Mus musculus with 6 samples.

Results

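The miR-297, miR-466, miR-467 and miR-669 families are mouse microRNAs (miRNAs) with repetitive sequences, and here they are described as they were bound to AGO2 in mouse embryonic stem cells. Members were chosen by name: every row of the deposited miRNA tables beginning with mmu-miR-297, mmu-miR-466, mmu-miR-467 or mmu-miR-669 and continuing with a letter, a hyphen or nothing. This gave 80 of the 1978 mature miRNA names, of which 6 were miR-297, 31 miR-466, 13 miR-467 and 30 miR-669 names. By arm of the hairpin, 35 names ended in 3p, 33 in 5p and 12 named no arm.

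The mouse embryonic stem cells had the Spy3-Ago2 genotype, in which AGO2, an Argonaute protein that guides miRNAs to their targets, bears a tag bound by the protein SpyCatcher3. The names of the libraries start with E14, a common line of such cells, and the cultures grew on gelatin in medium with serum and LIF, a cytokine that holds these cells undifferentiated. The series had 6 libraries in 3 groups of 2: miRNA and target libraries, both made from RNA held by AGO2, and input libraries of the lysate, and all 3 groups shared this genotype and culture. The miRNA group is described here, and the values per library of the target and input groups were not used here.

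The miRNA libraries held 12562727 counts in replicate 1 and 22908172 in replicate 2, so replicate 2 was 1.82-fold deeper. Nothing in the labels tells separate cultures from repeat preparations, and the spread between the replicates may be technical. With no control for unspecific binding among the libraries used here, no background was set against the shares. The identity of the cells was checked on miRNA markers: 5 names of the miR-290 cluster, which marks mouse embryonic stem cells, held 31.0% and 31.3% of the counts, and 4 let-7 names, which rise in differentiated cells, held 0.0105% ± 0.0014 (SD, n = 2). The neural markers miR-124-3p and miR-9-5p together held 1.32% ± 0.47, and the other marker lists (primed pluripotency, muscle, liver, blood and fibroblast or feeder) between 0.000497% and 0.785%. Whether these other cell types bear on the families was not tested.

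A miRNA hairpin is cut into a short duplex with a 5p and a 3p strand, and Argonaute usually keeps one of them as the guide. The guide recognises targets mainly through its seed, the bases from position 2 to 8. The families described here are known from rodents, where most of their genes form a large tandem array within an intron of Sfmbt2, an imprinted gene for a Polycomb-related protein with a known role in the trophoblast. Their hairpins hold runs of simple repeats, their mature strands are often rich in UG or in AC, and several genes encode mature miRNAs that are nearly or fully alike.

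RefSeq (build GRCm38.p6, the same assembly as mm10) gave a mature sequence for 8 of the 80 names, and these 8 are shown because they make the repeat character of the families visible. Each is written 5′ to 3′ with the seed in capitals.
miR-466k: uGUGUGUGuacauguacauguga
miR-467h: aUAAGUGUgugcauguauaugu
miR-466i-3p: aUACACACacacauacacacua
miR-466j: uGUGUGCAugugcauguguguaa
miR-467f: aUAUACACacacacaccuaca
miR-467g: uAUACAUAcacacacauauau
miR-466q: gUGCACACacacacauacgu
miR-669n: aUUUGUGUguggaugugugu
They lie at chr3:85467396-85467418 (miR-466k, plus strand), chr9:115381898-115381919 (miR-467h, plus), chr13:17747552-17747573 (miR-466i-3p, plus), chr10:60960802-60960824 (miR-466j, plus), chr11:69635419-69635439 (miR-467f, minus), chr5:34732872-34732892 (miR-467g, minus), chr3:28419988-28420007 (miR-466q, plus) and chr3:115979905-115979924 (miR-669n, plus). The 8 seeds were all different. By composition the sequences fell into UG-rich ones (miR-466k, miR-467h, miR-466j and miR-669n, with 68.2% to 90% U or G) and AC-rich ones (miR-466i-3p, miR-467f, miR-467g and miR-466q, with 70% to 86.4% A or C).

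The run UGUGUGUG, searched on the mature strand, was in 2 of the 8 members (miR-466k and miR-669n) and in 5 of 1671 other names with a RefSeq sequence (0.299%). The run ACACACAC was in 4 of the 8 members (miR-466i-3p, miR-467f, miR-467g and miR-466q) and in 0 of the 1671 other names. A match of letters is a description and no evidence of a binding site. Of the 5 other names with the UG run, the most abundant were miR-672-5p, whose libraries gave 3183 and 6205 counts, and miR-1187, whose libraries gave 1060 and 1521. The mature sequence of miR-1187 (chr5:82798964-82798986, minus strand) is shown for comparison with miR-466k, with the run in capitals.
miR-1187: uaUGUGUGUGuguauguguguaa

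Of the 7 members with a sequence and no arm in the name, miR-466k and miR-669n lay on the 5p side of the hairpin, and miR-467h, miR-466j, miR-467f, miR-467g and miR-466q on the 3p side. The hairpins of miR-466k (chr3:85467377-85467498) and miR-467h (chr9:115381819-115381939), both on the plus strand, show these places, with the mature miRNA in capitals. The hairpin of Mir297-1 (chr7:10958437-10958512, minus strand), 1 of the 4 genes that miR-297a can come from, shows the repeat itself: the capitals mark 5 units of UAUG followed by 3 units of UGUGCA.
Mir466k: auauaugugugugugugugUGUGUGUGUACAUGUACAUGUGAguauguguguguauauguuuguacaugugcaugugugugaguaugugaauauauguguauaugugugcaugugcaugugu
Mir467h: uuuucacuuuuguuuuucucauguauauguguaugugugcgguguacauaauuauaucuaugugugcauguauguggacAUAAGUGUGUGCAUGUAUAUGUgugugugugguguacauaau
Mir297-1: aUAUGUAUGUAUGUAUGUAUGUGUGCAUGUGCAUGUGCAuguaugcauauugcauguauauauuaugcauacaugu

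Together the 80 names had 199593 counts in replicate 1, or 1.59% of the library (95% Wilson interval 1.58 to 1.60), and 337889 counts in replicate 2, or 1.47% (1.47 to 1.48). The mean was 1.53% ± 0.080 (SD over the 2 libraries, as in all means that follow). Intervals cover counting error only and treat each count as independent. Copies made by PCR are not independent molecules, so the intervals may be too narrow even for that. A share is an average over the culture, so fewer cells holding a miRNA and less of it per cell cannot be told apart.

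The families were widely detected but had no very abundant member. At least 10 counts in each library were recorded for 60 of the 80 names (75%), against 34.2% of all names in the table and 32.5% of the 1898 other names. At least 100 counts in each library were recorded for 51 members, against 427 of all 1978 names and 376 of the other 1898. The median member had 33.0 CPM (counts per 1000000 counts of the library), whereas the median other name had 0.0835 CPM. Among names with at least 10 counts in each library the medians were 81.9 CPM for the members and 22.7 CPM for the others, while the upper quartile was lower for the members at 184 CPM than for the others at 274 CPM. The highest member, miR-467d-3p, stood at 0.251% of the counts and at place 55 in the table. The most abundant other name, miR-290a-5p, stood at 23.8%.

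No count in either library was recorded for 15 members (18.8%), against 38.7% of all names in the table and 39.6% of the other names. In the miR-297 family these were miR-297b-3p and miR-297c-3p. In the miR-466 family they were miR-466a-3p, miR-466b-3p, miR-466b-5p, miR-466c-3p, miR-466e-3p, miR-466m-5p, miR-466o-5p and miR-466p-3p. In the miR-669 family they were miR-669a-3p, miR-669a-5p, miR-669m-5p, miR-669o-3p and miR-669p-5p. The miR-467 family had 0 such names among 13. By arm, 9 of the 15 were 3p names, 6 were 5p names and 0 were names without an arm.

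The names at 0 have a property in common in the miRBase annotation: each is known to have the same mature sequence as another member. Annotation known as background, and listed after the counts had been seen, puts 16 members into 7 such groups, for example miR-669a-5p with miR-669p-5p, and miR-466m-5p with miR-669m-5p. All 15 names at 0 were among these 16, and the last, miR-297a-3p, had 1 count in replicate 1 and 0 in replicate 2. Of the 64 members not known to share a sequence, 0 were at 0 in both libraries and 60 had at least 10 counts in each.

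The same could be read from sequences for names outside the families. RefSeq sequences put 9 of them into 4 groups of identical mature sequence (miR-199a-3p with miR-199b-3p, miR-344e-5p with miR-344h-5p, let-7a-1-3p with let-7c-2-3p, and miR-465a-3p with miR-465b-3p and miR-465c-3p), and all 9 had 0 counts in both libraries. Of the 1662 other names with a sequence of their own, 633 (38.1%) were at 0 and 549 (33.0%) had at least 10 counts in each library. The sources used here do not give the counting rule for reads that match several names, and its part in these zeros was not tested. A 0 of a shared name is therefore not taken as a level, and the sums hold almost nothing from these 16 names. For a name of its own, a count of 0 would allow a share of up to 2.39e-05% in replicate 1 and 1.31e-05% in replicate 2 (3 counts of each total).

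Few other members were scarce. The 4 names not known to share a sequence with fewer than 10 counts in a library were miR-466q with 1 count in replicate 1 and 0 in replicate 2, miR-669n with 0 and 1, miR-669d-3p with 1 and 2, and miR-669g with 6 and 16. The printed sequences of miR-466q and miR-669n are the shortest of the 8, at 20 bases, and both genes lie on chromosome 3, away from Sfmbt2.

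By family, miR-466 held the largest share of the library and miR-297 the smallest. miR-466 names held 0.668% in replicate 1 and 0.590% in replicate 2, a mean of 0.629% ± 0.055. miR-467 names held 0.562% and 0.523%, a mean of 0.542% ± 0.028. miR-669 names held 0.221% and 0.224%, a mean of 0.223% ± 0.0018, and miR-297 names 0.137% and 0.139%, a mean of 0.138% ± 0.0011. The order of the 4 families was the same in both libraries and each gap between neighbours exceeded both SDs. Of the counts of the 80 names, miR-466 held 41.0%, miR-467 35.4%, miR-669 14.5% and miR-297 9.01%.

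The families differed in how many names carried these shares. All 13 miR-467 names had at least 10 counts in each library, as did 22 of 31 miR-466 names, 22 of 30 miR-669 names and 3 of 6 miR-297 names. The miR-669 family, with 30 names, thus held less of the counts read than the miR-467 family with 13. Names known to share a sequence, at or near 0 and not taken as levels, were spread unequally. They were 8 in miR-466, 5 in miR-669, 3 in miR-297 and 0 in miR-467. The family shares and the numbers of names detected therefore cover only the names taken as levels. Without miR-467d-3p the miR-467 family held 0.291%, less than miR-466 and still more than miR-669. The plot of members by family shows the levels behind these sums.

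**Figure D1:**
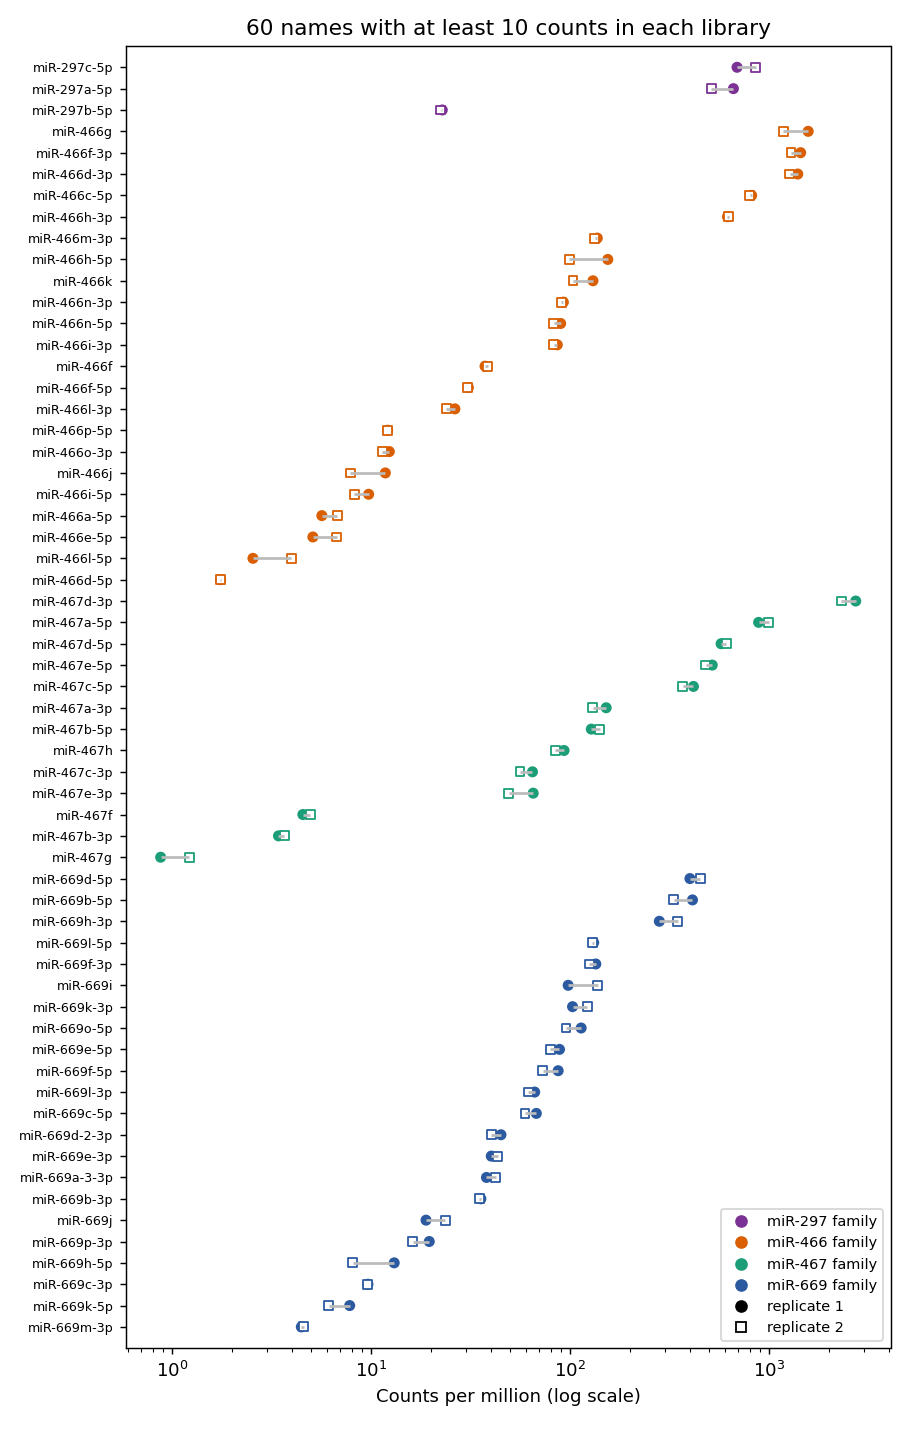
CPM (log axis) of the 60 members with at least 10 counts in each library, by family and in descending order of mean share; filled circles are replicate 1 and open squares replicate 2. Most pairs lie close together, miR-467d-3p is the highest at 2721 and 2307 CPM, and every family spans more than 10-fold.

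The counts were concentrated in a few members. The leading name held 16.4% of the counts of the 80, the first 5 held 49.1%, the first 10 held 71.1% and the first 20 held 88.6%. A step followed the fifteenth name, miR-669h-3p at 0.0313% ± 0.0046, since the next, miR-467a-3p, stood at 0.0141% ± 0.0015. The first 15 names held 84.2%.

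miR-467d-3p led with 34186 counts in replicate 1 and 52845 in replicate 2, a mean share of 0.251% ± 0.029. It was the highest member in both libraries, and its lead over the next name exceeded both SDs. The 3 that followed were miR-466 names. miR-466g had 19719 and 26945 counts (0.137% ± 0.028), miR-466f-3p 18076 and 29489 (0.136% ± 0.011), and miR-466d-3p 17480 and 29066 (0.133% ± 0.0087). These 3 did not differ beyond their spread, and miR-466g was above miR-466f-3p in replicate 1 and below it in replicate 2.

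The fifth name, miR-467a-5p, had 11114 and 22758 counts, a share of 0.0939% ± 0.0077. It comes from 10 gene copies and is known to carry the seed of miR-290a-3p and miR-292a-3p, products of the miR-290 cluster. miR-290a-3p had fewer counts than it, 1145 and 2144 (0.00924% ± 0.00017), and miR-292a-3p many more, 198308 and 289783 (1.42% ± 0.22). The mature sequence of miR-290a-3p (chr7:3218674-3218697, plus strand) shows that seed in capitals.
miR-290a-3p: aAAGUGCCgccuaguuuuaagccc

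The next 5 names came from 3 families. miR-466c-5p had 10251 counts in replicate 1 and 18284 in replicate 2 (0.0807% ± 0.0013). miR-297c-5p had 8660 and 19553 (0.0771% ± 0.012), and miR-297a-5p had 8302 and 11733 (0.0587% ± 0.011). These 2 names made up nearly all of the miR-297 family, whose next name, miR-297b-5p, had 286 and 511 counts. miR-466h-3p had 7750 and 14316 counts (0.0621% ± 0.00057), and miR-467d-5p, from the other arm of the leading hairpin, 7198 and 13966 (0.0591% ± 0.0026). The order was loose at this level: miR-297c-5p was below miR-466c-5p in replicate 1 and above it in replicate 2.

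miR-669 names entered the ranking only at the twelfth place. miR-669d-5p had 5020 and 10314 counts (0.0425% ± 0.0036), miR-669b-5p 5171 and 7578 (0.0371% ± 0.0057), and miR-669h-3p 3524 and 7932 (0.0313%), at places 12, 14 and 15. miR-467e-5p, with 6500 and 10975 counts (0.0498% ± 0.0027), stood just above them at the eleventh place, and miR-467c-5p, with 5228 and 8406 (0.0392% ± 0.0035), at the thirteenth. The sixteenth to twentieth names, miR-467a-3p, miR-466m-3p, miR-467b-5p, miR-669l-5p and miR-669f-3p, lay between 0.0130% and 0.0141%. miR-467b-5p comes from a hairpin known in mouse macrophages for acting on lipoprotein lipase. Of the 19 neighbouring pairs in the first 20, 9 changed order between the libraries.

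By arm, the 35 names ending in 3p held 0.758% in replicate 1 and 0.691% in replicate 2, a mean of 0.725% ± 0.047. The 33 names ending in 5p held 0.634% and 0.626%, a mean of 0.630% ± 0.0057. The 12 names without an arm held 0.196% and 0.158%, a mean of 0.177% ± 0.027, most of it miR-466g. The 3p share was above the 5p share in both libraries by more than either SD, and the arms held 47.3% (3p), 41.2% (5p) and 11.5% (no arm) of the counts of the 80, averaged over the libraries. Over all names this lead turned round without 1 name: leaving out miR-467d-3p, the 3p names held 37.0% and the 5p names 49.2% of what remained. However, 10 of the 35 3p names and 6 of the 33 5p names are known to share a sequence and were at or near 0. The sums thus include 5p names, such as those of miR-297, whose 3p partner is not taken as measured. The reversal describes the counts read and not the arm use of hairpins.

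The arm that dominated differed by family. In miR-466, 3p names held 0.366% ± 0.020 and 5p names 0.109% ± 0.0055, a gap larger than the spread. In miR-669 it was the reverse, with 0.0811% ± 0.0049 for 3p and 0.128% ± 0.0062 for 5p. In miR-467 the 2 arms were not separable, with 0.301% and 0.255% for 3p and 0.252% and 0.259% for 5p, so that 3p was higher in replicate 1 and lower in replicate 2. In miR-297 the 3p names had 1 and 0 counts against 17248 and 31797 for 5p. However, all 3 of its 3p names are known to share their sequence, and the 3p side is therefore not taken as measured.

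**Figure D2:**
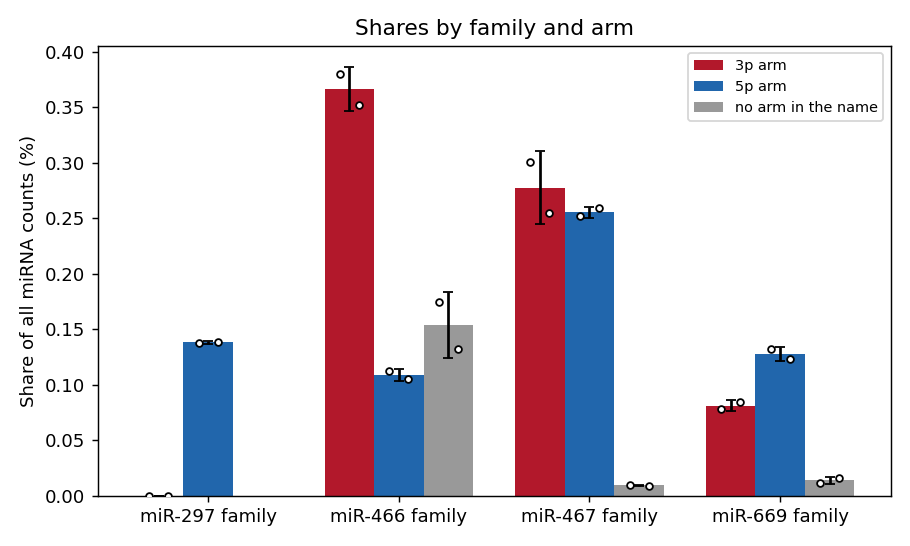
Share of all miRNA counts (%) by family and arm; bars are means over the 2 libraries, error bars their SD and open circles the libraries. The 3p bar is the higher one in miR-466, the 5p bar in miR-669, and in miR-467 the circles of both arms overlap.

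Single hairpins differed widely in arm use. Both arms were named for 33 hairpins, and 28 of them passed a minimum of 100 counts, summed over the arms, in each library. Of the 28, 13 had more 3p and 15 more 5p counts, the major arm was the same in both libraries for 28 of 28, and the 3p share moved between the libraries by at most 6.37 percentage points. Among 232 hairpins outside the families the major arm was the same for 230, and the share moved by at most 12.2 points. For 9 of the 28, an arm has a shared name at or near 0, so the arm use is not taken as measured. These are all 3 miR-297 hairpins, miR-466c, miR-466p and miR-669o, which read as 5p, and miR-466m, miR-466o and miR-669p, which read as 3p.

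The other 19 hairpins divided into 10 with more 3p and 9 with more 5p counts, with a median 3p share of 51.5%. At least 90% of the counts lay on 1 arm in 8 of the 19 (42.1%). Among the 232 hairpins outside the families, under the same minimum of 100 counts, this held for 171 (73.7%), and 119 had more 3p and 113 more 5p counts. No hairpin outside was left out for a shared name, not even for 1 of the 9 names given above. With none left out among the members either, 17 of the 28 hairpins (60.7%) had at least 90% on 1 arm. The shares are set side by side and were not tested.

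All 6 unshared miR-466 hairpins had more 3p counts. miR-466d had a 3p share of 99.87% ± 0.0083, with 17480 and 29066 counts on its 3p arm and 22 and 40 on its 5p arm. miR-466f had a 3p share of 97.8% ± 0.16, miR-466i 90.4% ± 0.77, miR-466l, known in mouse macrophages for stabilising Il10 mRNA, 88.5% ± 3.9, and miR-466h 83.2% ± 4.5. A further name, miR-466f without an arm, had 469 and 882 counts, against 387 and 699 for miR-466f-5p. It was not added to the hairpin of miR-466f. miR-466n was balanced, with a 3p share of 50.8% in replicate 1 (interval 48.7 to 52.8) and of 52.2% in replicate 2 (interval 50.7 to 53.8).

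In the miR-467 family, miR-467d stood apart with a 3p share of 82.6% in replicate 1 and 79.1% in replicate 2. The other 4 hairpins had mostly 5p counts, with 3p shares of 13.3% ± 0.16 for miR-467c, 13.1% ± 2.2 for miR-467a, 10.2% ± 1.3 for miR-467e and 2.58% ± 0.046 for miR-467b. The family sums that did not separate the arms therefore combine 1 abundant hairpin read mainly from 3p with 4 read mainly from 5p.

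The miR-669 family covered nearly the whole range. miR-669h (96.6% ± 1.5) and miR-669k (94.1% ± 1.6) were mostly 3p and miR-669f 61.9% ± 1.7 3p. miR-669e (33.2% ± 2.8), miR-669l (32.9% ± 0.91), miR-669c (13.2% ± 1.0) and miR-669b (8.76% ± 1.1) had more 5p counts. miR-669d stood at 0.0197%, but its 5p name stands for 2 gene copies and the 3p arm of the second is counted under miR-669d-2-3p (564 and 919 counts), which was not added. Summed over the 19 hairpins, 3p names held 63.7% and 5p names 36.3% of their counts.

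**Figure D3:**
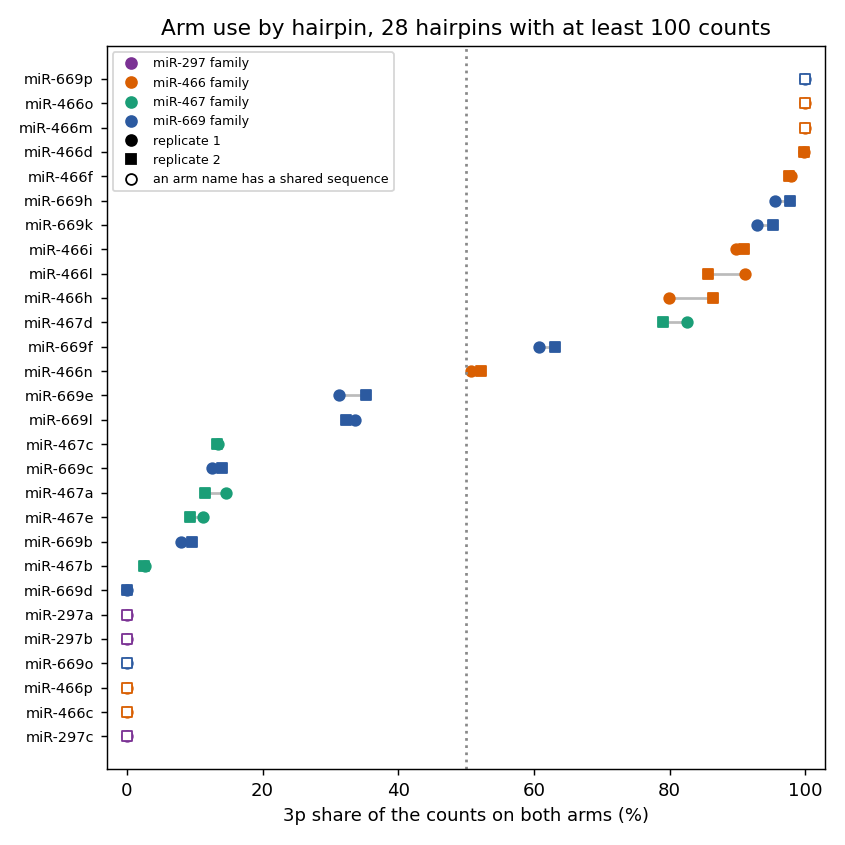
Share of the 3p arm in the counts of both arms (%) for the 28 hairpins with at least 100 counts in each library; circles are replicate 1, squares replicate 2, and open symbols hairpins in which an arm name has a shared sequence. The filled symbols run from 0.0197% to 99.87%, with miR-466 on the right of the dotted 50% line and miR-467 on the left except miR-467d.

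On the genome, most members come from 1 place. RefSeq lists 82 miRNA genes of the 4 families on GRCm38.p6, and 72 lie within the span of Sfmbt2 (chr2:10370440-10595253), among them 24 miR-466, 14 miR-467, 29 miR-669 and 5 miR-297 genes. These 72 hairpins fill 51617 nt, from 10466663 to 10518279. The array repeats regularly: Mir467a has 10 copies, spaced by a median of 2462 nt (2413 to 4880). The gene table gave neither exons nor strand, so the position relative to the exons of Sfmbt2 was not derived here.

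The 66 names whose gene copies all lie in Sfmbt2 held 1.30% ± 0.056 of the library, or 84.8% of the counts of the 80. The 5 names with copies both inside and outside, of miR-466f and miR-297a, held 0.202% ± 0.021 (13.2%), and their counts cannot be assigned to a locus. The 9 names with no copy in Sfmbt2 held 0.0314% ± 0.0031 (2.05%). These 9 include the 8 whose sequences are printed above, with miR-466k (1635 and 2366 counts), miR-467h (1170 and 1929) and miR-466i-3p (1082 and 1891) as the most abundant and miR-467f (57 and 113) and miR-467g (11 and 28) among the low ones.

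Of the genes outside, Mir467f lies in the span of Fxr2, Mir466i in Cdk13, Mir466q in Tnik, Mir669n in Slc30a7 and Mir467g in Grk4, which are protein-coding genes, and Mir466k in the lncRNA gene Gm31419. Mir466j, Mir466f-4, Mir297-1 and Mir467h lie in no annotated gene span.

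Names with a single gene copy were 62 of the 80 and held most of the counts. The 62 names with 1 gene copy held 1.10% ± 0.068, or 71.6% of the counts of the 80, and the 18 names with several copies held 0.435% ± 0.013 (28.4%). Of these, 8 of the 62 and 8 of the 18 are known to share a sequence and were at or near 0. Set arm against arm, miR-467a-5p, with 10 copies, held 0.0939%, above the 0.0591% of miR-467d-5p with 1 copy. On the 3p arm the order was the other way, with 0.0141% for miR-467a-3p and 0.251% for miR-467d-3p. Among other names with many copies, miR-669a-5p with 12, miR-669a-3p with 11 and miR-466b-3p and miR-466b-5p with 8 each were at 0 in both libraries, and all 4 have shared sequences. miR-669a is known from mouse cardiac progenitors as a repressor of skeletal muscle fate, and its 0 counts are not taken as a level. The copy with a 3p name of its own, miR-669a-3-3p, had 477 and 968 counts.

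Within the array, the counts read lay mainly at its end. The 30 names whose gene copies all lie in the last stretch, the 20 genes over 12.6 kb that follow Mir669a-12, held 0.875% ± 0.054 of the library. The 20 names of the first stretch, the 16 genes over 8.76 kb that precede Mir467a-1, held 0.216% ± 0.0080, and the 12 names of the 36 genes over 27.5 kb in the middle 0.207% ± 0.0060. The lead of the last stretch exceeded the spread between the libraries. The first and the middle stretch changed order between them, with 0.222% and 0.210% for the first and 0.203% and 0.211% for the middle. No stretch includes the 5 names of miR-466f and miR-297a (0.202% ± 0.021), which also have a copy outside Sfmbt2. All copies of miR-466f within the array lie in the first stretch, and miR-466f-3p alone held 0.136%. The order of the first and the middle stretch thus holds only for the names summed. The 3 stretches were set after the values had been seen. In the middle stretch nearly all of the share came from names with several copies, miR-467a-5p, miR-466c-5p and miR-467a-3p, and the names with 1 copy held 0.0165% ± 0.0014. Another 4 names, of miR-669a and miR-466b, have copies in several stretches and were at 0. All 4 are known to have shared sequences, and most of their genes lie in the middle stretch, whose level is therefore largely not taken as measured. Shared names were also 2 of the 20 in the first stretch, 3 of the 12 in the middle and 6 of the 30 in the last. The lead of the last stretch thus holds for the counts read and not for the levels of the genes. The 27 hairpins with 1 copy ranged from 0.588 CPM (Mir669g) to 3105 CPM (Mir467d), with a median of 135 CPM. For some of them, such as Mir466e and Mir297c, an arm has a shared name at 0, and others, such as Mir669g, have 1 name only. Their values are those of the counts read and not of both arms. The 6 highest, Mir467d, Mir466g, Mir466d, Mir297c, Mir466h and Mir467e, all lay between 39.1 and 48.2 kb from the start of the first hairpin.

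**Figure D4:**
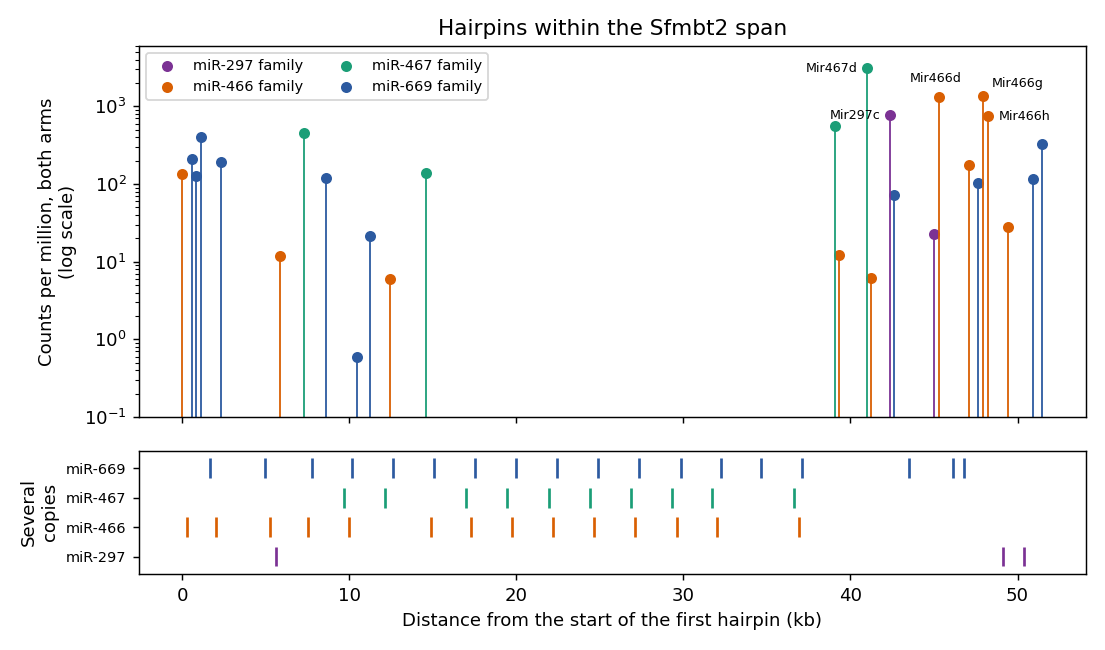
Upper panel, CPM of both arms (log axis, mean of 2 libraries) for the 27 hairpins with 1 gene copy, by distance from the start of the first hairpin in the Sfmbt2 span; lower panel, places of genes with several copies, whose counts cannot be divided. The tallest stems stand from 39.1 kb on, and the middle of the array holds repeated genes.

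The deposited list of 3292 target peaks, which gives 1 list for the series and no value per library, held 0 peaks within the Sfmbt2 span and 0 over the member hairpins. It adds no measurement of the host transcript.

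On seeds, the comparison could be made for the 8 members with a sequence. Of the 1671 other names with one, miR-668-5p alone had the 7-base seed of a member, that of miR-467h, and it had 1 count in replicate 1 and 19 in replicate 2. miR-467h itself had 1170 and 1929 counts. With bases 2 to 7, miR-98-3p, miR-5617-5p and 5 let-7 3p names were added, and their counts lay between 0 and 26 in a library.

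The libraries differed little on the members. Of the 51 members with at least 100 counts in each library, 2 (3.92%) differed at least 1.5-fold in share, against 4.92% of all 427 such names and 5.05% of the 376 others. miR-669h-5p had 164 counts in replicate 1 and 185 in replicate 2, which was 1.62-fold higher in share in replicate 1. miR-466h-5p, known from hamster cells as a promoter of apoptosis, had 1941 and 2265 counts, 1.56-fold higher in replicate 1. Both are the minor arms of hairpins read mainly from 3p, and the shares of miR-669h-3p and miR-466h-3p were higher in replicate 2, with log2 ratios of 0.30 and 0.02.

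Over the 51 members the log2 ratio of shares, replicate 2 over replicate 1, had a median of -0.11 and an SD of 0.24, with a range of -0.69 to 0.49, and 37 members were below 0 and 14 above. Over the 376 other names the median was -0.03 and the SD 0.31, with 197 below 0 and 179 above. A difference between members of less than about this spread cannot be read from 2 libraries.

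**Figure D5:**
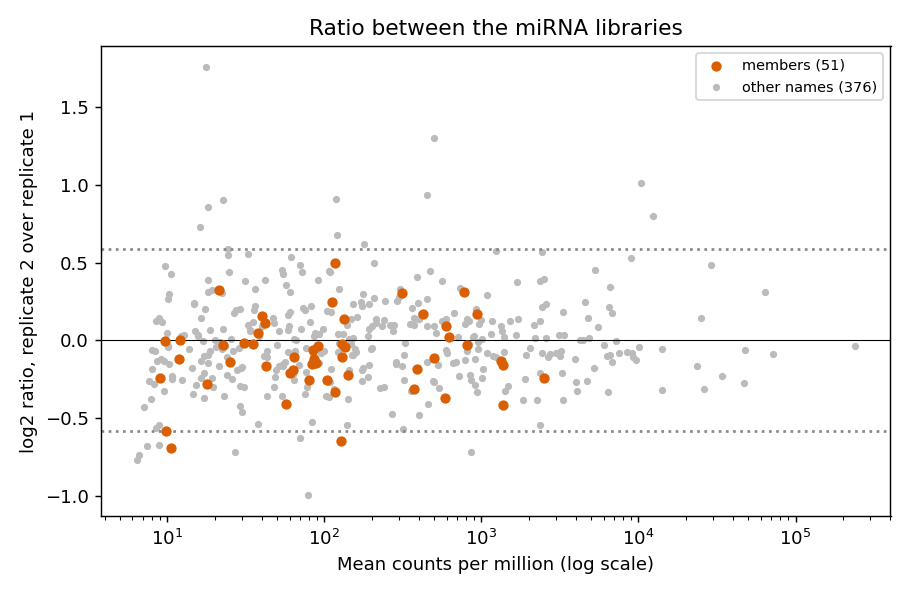
Log2 ratio of shares, replicate 2 over replicate 1, against mean CPM (log axis) for 51 members (orange) and 376 other names (grey) with at least 100 counts in each library; dotted lines mark 1.5-fold. The members lie between -0.69 and 0.49, and 2 of them are past the lower line.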

How the data were processed

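The authors deposited raw, unnormalized counts of mature miRNAs, 1 table a miRNA library, and a peak list for the series with a score of 0 for every peak. The mm10 build, deepTools 3.1.3, DESeq2 1.36.0, Bowtie2 2.4.2, STAR 2.5.2a, cutadapt 2.10 and UMI-tools appear, without roles, in the submitters' processing notes. The sources used here do not give whether UMIs were collapsed or which rule counted reads that match several names. A last row naming no miRNA held 0 counts and was left out.

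Shares of the library total, means and SDs over the 2 libraries and 95% Wilson intervals were computed, and the floor for a count of 0 was 3 counts. Detection meant at least 10 counts in each library. Hairpins were paired by name. With 1 group of 2 miRNA libraries no contrast could be fitted, so no p-value is given, and the same figures over all names stand beside those of the members. Names were matched to 49997 RefSeq genes (GRCm38.p6), and all 80 had a gene. One gene was matched by a synonym, and coordinates are counted from 1. edgeR 4.0.16 and DESeq2 1.42.0 supplied alternative normalizations. Of the steps, only the call of a 1.5-fold difference between the libraries was tested on simulated data, drawn with counting error only. Scripts ran in R 4.3.3 and in Python 3.11.15 with matplotlib 3.10.9, pandas 2.3.3, scipy 1.17.1 and numpy 2.4.6.

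The members and lists were chosen with earlier results of these data known. Members named singly were the 20 highest, the 3 highest of each family, those of hairpins whose major arm was not that of most hairpins, those differing between the libraries, and the names at 0. A further part, other names with the seed of the 5 highest members, was not applied because those sequences were not used here, and the 8 members with a sequence took its place. The other names, miR-467f, miR-467g, miR-466j, miR-466k, miR-467h, miR-466q, miR-669n, miR-669g, miR-669a-3-3p, miR-669d-2-3p and the names outside the families among them, were chosen with their counts in view. The list of shared mature sequences was written from knowledge of the miRBase annotation after the values were seen.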

Additional observations from a re-analysis of the deposited data

How the results depend on the processing

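Of 66 alternative values over 15 results, 49 stayed within the spread or within 1.5 times the count, 16 moved and 1 reversed. Leaving out either library kept each value within that mark. However, the mark is wide for the share of other names with the seed of 1 of the 8 members with a sequence. The SD of that share exceeds its mean: it was 8.29e-05% without replicate 1 and 7.96e-06% without replicate 2, against 4.54e-05%. It leaves out the seeds of all other members, such as that of miR-467a-5p. The total share of the families was 2.01% with miR-290a-5p left out of the library total, 1.28% without miR-467d-3p and 1.10% without names with several gene copies. Without miR-467d-3p the miR-467 share was 0.291%, and the arms held 37.0% (3p), 49.2% (5p) and 13.8% (no arm) of the counts. Thus 5p led over all names, among them 5p names whose 3p partner is not taken as measured. The difference of 3p minus 5p, 6.13 percentage points, turned to -12.25. With names that give no arm left out, 3p held 53.5% and 5p 46.5%, and over hairpins with 2 unshared arms 63.7% and 36.3%, a difference of 27.4 points. Those hairpins gave 9 with more 5p than 3p counts, in place of 15. Without the names known to share a sequence, 0 members were at 0, in place of 15. That outcome was fixed by the list, which was written with the counts in view and holds all 15. Over bases 2 to 7 in place of 2 to 8, other names with the seed of 1 of the 8 members with a sequence held 0.000229%. At 2-fold, 0 members differed between the libraries, in place of 2, with TMM and DESeq2 size factors leaving the count at 2. The alternatives on unshared hairpins, on several gene copies and on shared names among those at 0 were chosen after seeing the data. The planned ones on shared sequences used the annotation list, since RefSeq gave 8 of the 80 sequences. No paired analysis was possible because the values used here were those of a single group. Depth limits names below 10 counts, and 2 libraries limit every SD.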
